A study of Mus musculus with 24 samples.

Results

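Astrocytes wrap brain blood vessels with flattened processes called endfeet, and 9 genes that build the endfoot membrane are described here in mouse brain RNA. They are the water channel gene Aqp4, the potassium channel gene Kcnj10, the dystrophin-complex genes Dag1, Dtna and Dmd, the adhesion partners Mlc1 and Hepacam, and the gap junction genes Gja1 and Gjb6. The genes were picked by name from the 52636 gene identifiers counted, and the group was chosen because Aqp4 was higher in the Syn Cre_pos libraries. The values of that comparison are therefore given as a description with no test. Its intervals do not allow for this choice, and none is to be read as a test. Total RNA of brain tissue was sequenced in 24 libraries, in 4 groups of 6 mice. The study lowers EAAT2, the glutamate transporter that Slc1a2 encodes, with Cre recombinase under either of 2 promoters. In the Syn line, the Cre_pos mice are syn-Cre+ with EAAT2−/− and their Cre_neg controls are syn-Cre− with EAAT2+/+. In the GFAP line, the Cre_pos mice are gfapCre+ with EAAT2Δ/+, so that 1 normal allele is left by the label, and the Cre_neg controls are gfap-Cre− with EAAT2+/+. The labels' "cell type" names the Cre line, while the source of every sample is whole brain tissue. The sources used here do not give age, sex, brain region or the strains that carry the Cre drivers, whose names are those of a neuronal and an astrocyte promoter.

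Aquaporin-4 lets water cross the endfoot membrane, and Kir4.1, the product of Kcnj10, carries potassium that neurons release. Aquaporin-4 is held at the vessel side by a complex in which dystroglycan binds laminin and agrin of the basement membrane outside the cell and dystrophin and dystrobrevin inside it. MLC1 and GlialCAM form a cell-junction pair that is known from a childhood leukoencephalopathy with brain swelling, and connexin 43 and connexin 30 join neighbouring astrocytes into a network. Because the tissue is bulk brain, fewer cells of a type and less RNA per cell cannot be told apart in any value below. Nor do the values show which cell types a member's RNA came from, so none is a measure of endfeet alone.

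Every member was detected in every library, and all 9 passed the filter on low counts. Lengths of merged exons in the GENCODE M21 annotation of GRCm38 (mm10) put levels on a per-length scale, RPKM (reads per kilobase of exon and per unit of library size). On that scale Mlc1 stood highest, at a mean of 66.4 RPKM over the 24 libraries. Kcnj10 followed at 35.03, then Hepacam at 26.7, Aqp4 at 26.3, Gja1 at 23.2, Gjb6 at 17.6, Dag1 at 17.4, Dtna at 9.54 and Dmd at 3.16 RPKM. From Kcnj10 down to Dag1 every neighbour in this order overlapped with the next over the libraries, as Hepacam (23.6 to 30.1 RPKM) did with Aqp4 (20.2 to 35.05). Mlc1 above them, and Dtna and Dmd below, had ranges that did not overlap with a neighbour's. Long annotated exon models such as the 23801 bases of Dmd lower a value per length where brain uses shorter transcripts. Aqp4 (ENSMUSG00000024411) lies on the minus strand of chromosome 18 at 15389496 to 15410982, and Dtna (ENSMUSG00000024302) on the plus strand of the same chromosome at 23415135 to 23659715. Exons of Dtna overlap those of the antisense gene Gm47898 over 90 bases, and no other member has exons that overlap another gene.

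Across the series, counts in genes ran from 41596313 to 69652824 per library, and 19726 genes passed the filter. Levels below are in CPM, counts relative to a library size that edgeR's TMM factors scale. All 20 astrocyte markers and all 10 neuron markers were present in every group. Library Syn Cre_neg 5 stood apart in its read summary, with 7.46% ambiguous reads against 3.19 to 3.92% elsewhere. Slc1a2, the targeted gene, averaged 3012 ± 213 CPM in Syn Cre_pos and 3322 ± 98.7 in Syn Cre_neg (SD, n = 6 each). It averaged 3480.3 ± 290.1 CPM in GFAP Cre_pos and 3518 ± 542 in GFAP Cre_neg, a log2 difference of −0.015 (edgeR adjusted p = 0.9997). The sum over the gene does not show which exons were read, so every direction below is one between libraries as labelled. Several libraries of a group share a prefix in their titles, and no prefix occurs in more than 1 group. The labels do not say what it marks, and whatever it marks cannot be told apart from the group. The choroid plexus gene Ttr, a secreted hormone carrier, was above 1000 CPM in libraries 2, 5 and 6 of Syn Cre_pos and 3, 4 and 6 of Syn Cre_neg, and reached at most 224 CPM in the GFAP line.

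Aqp4 RNA was at its highest in the Syn Cre_pos libraries and close to even in the other groups. The Syn Cre_pos libraries 1 to 6 held 199.1, 208.0, 212.5, 216.0, 178.0 and 218.4 CPM. The Syn Cre_neg libraries 1 to 6 held 152.9, 145.7, 126.2, 150.2, 129.2 and 137.8 CPM. The lowest Syn Cre_pos library, number 5, lay above the highest library of each other group. In GFAP Cre_pos the values were 163.7, 167.4, 172.9, 152.2, 154.4 and 147.8 CPM, and in GFAP Cre_neg they were 156.6, 152.4, 160.1, 129.8, 162.2 and 134.7 CPM. By group mean the order was Syn Cre_pos (205 ± 15.0), GFAP Cre_pos (160 ± 9.75), GFAP Cre_neg (149 ± 13.7) and Syn Cre_neg (140.3 ± 11.1 CPM, SD, n = 6 each). The last 3 groups overlapped with their neighbours in that order. The fitted log2 difference between the Syn groups was 0.55 (SE 0.06, 95% interval 0.42 to 0.68), or 46.3% more. That interval takes no account of Aqp4 having been chosen for being high here. Without the 6 libraries of high Ttr it was 0.56, and with any 1 library left out it ran from 0.52 to 0.59.

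Against the astrocyte markers taken as a whole, the mean of Aqp4 was still highest in Syn Cre_pos. The mean log2 CPM of the 20 astrocyte markers was 6.52 ± 0.072 in Syn Cre_pos and 6.54 ± 0.061 in Syn Cre_neg (SD, n = 6 each), and it lay at 6.601 and 6.55 in GFAP Cre_pos and Cre_neg. In the Syn comparison 6 of the 20 were positive and 14 negative, with a median log2 difference of −0.054. Aqp4 stood 1.16 ± 0.18 above the marker mean in Syn Cre_pos and 0.58 ± 0.13 above it in Syn Cre_neg, on the log2 scale. The lowest Syn Cre_pos library (0.81) remained above the highest Syn Cre_neg library (0.74). On this scale Syn Cre_pos was not clear of the GFAP line, since GFAP Cre_pos 1 (0.84) and 3 (0.88) and GFAP Cre_neg 3 (0.87) exceeded its lowest library. The same quantity was 0.72 ± 0.14 in GFAP Cre_pos and 0.66 ± 0.17 in GFAP Cre_neg. Gfap, an intermediate filament gene that is itself on the marker list, had 567.7 ± 64.5 CPM in Syn Cre_pos and 487 ± 73.4 in Syn Cre_neg, and its ranges overlapped. Choroid plexus markers were lower in value in Syn Cre_pos for 10 of 10 genes (median −0.46), with sums of 285 to 6823 CPM against 320 to 7342 CPM. Meningeal fibroblast markers were higher in value for 9 of 9 genes (median 0.31), with sums of 126 to 357 CPM against 73.9 to 329 CPM, and oligodendrocyte markers for 7 of 10 (median 0.11). Their part in the member values was not tested, beyond the runs without high-Ttr libraries.

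**Figure D1:**
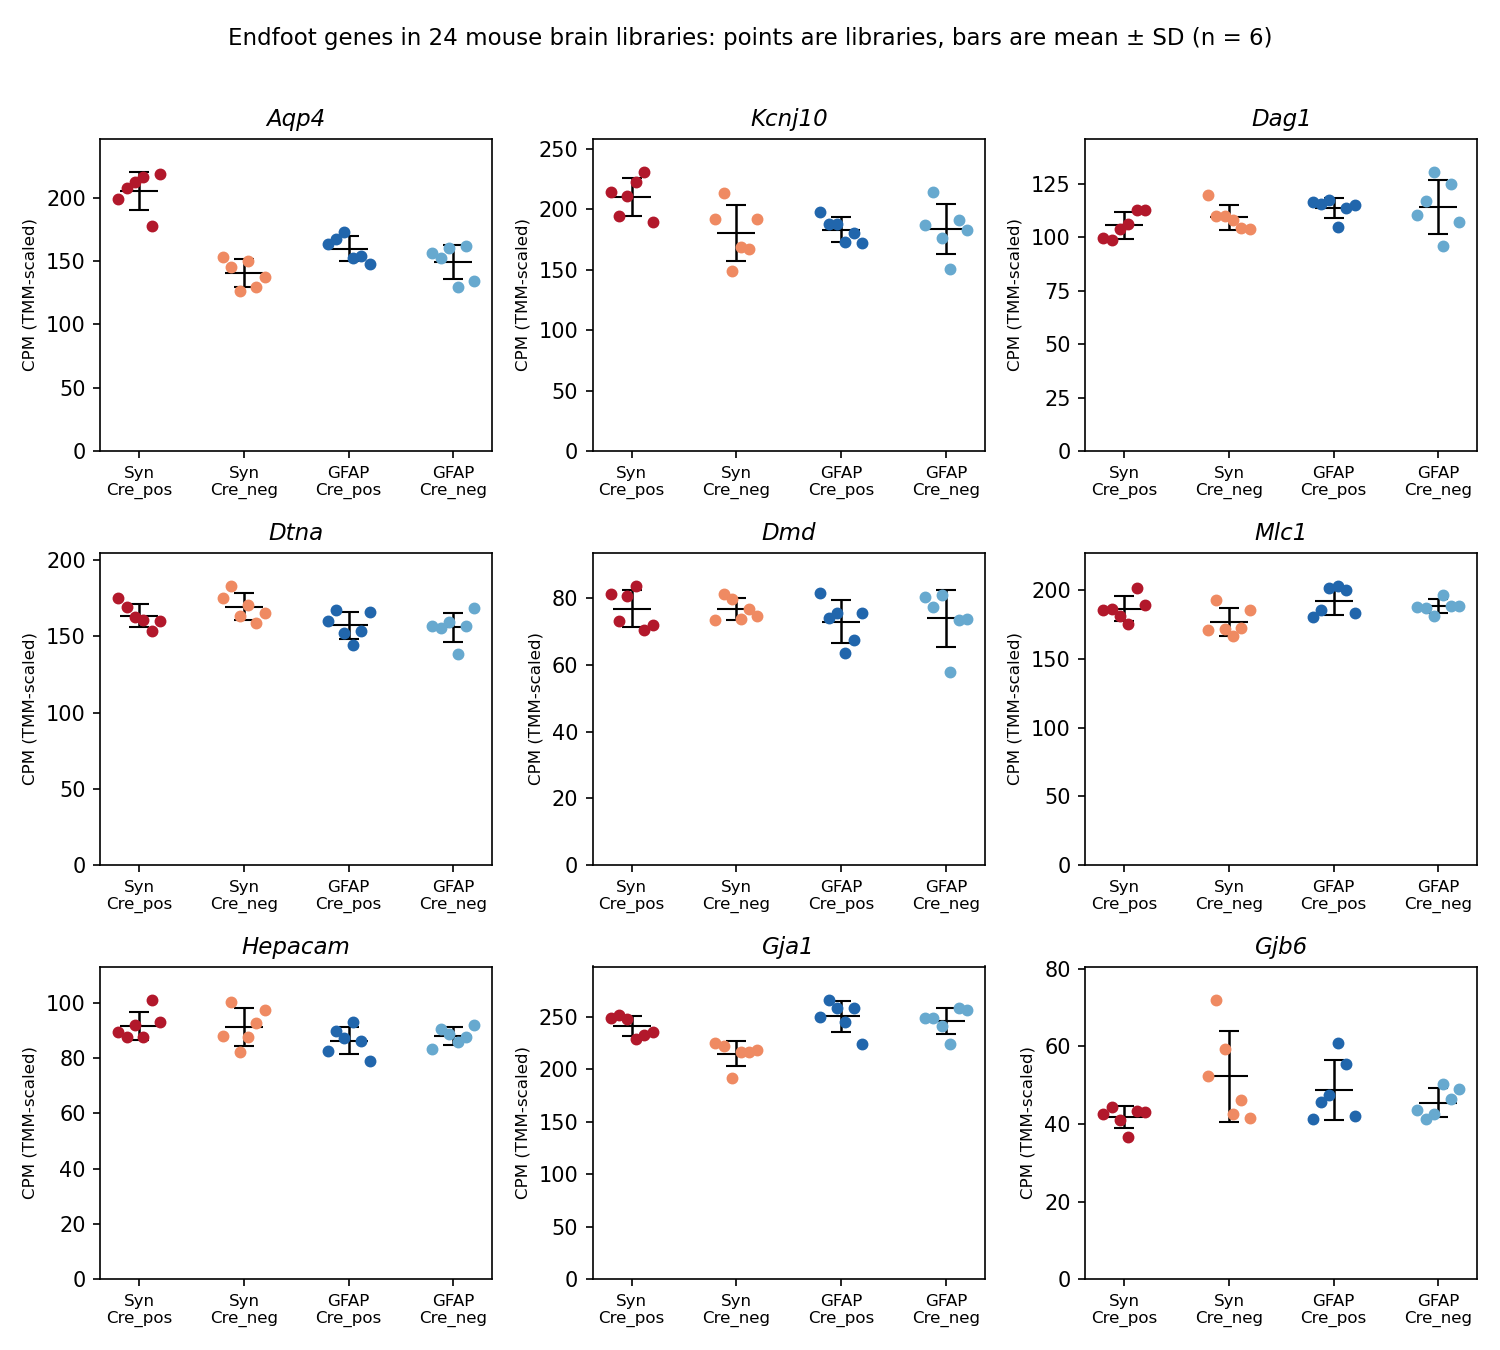
Level of each of the 9 endfoot genes in every library, in TMM-scaled CPM on a linear axis that starts at 0. Each point is 1 library and the bars are the group mean ± SD (n = 6). The 6 Syn Cre_pos points of Aqp4 (178.0 to 218.4 CPM) lie above all other libraries, while the points of Dag1, Dtna, Dmd, Mlc1 and Hepacam overlap across the 4 groups.

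Kcnj10 (ENSMUSG00000044708, chromosome 1, 172341210 to 172374085, plus strand) had the next largest positive value among the members in the Syn comparison, and its groups overlapped. Its Syn Cre_pos libraries ran from 189.6 to 230.9 CPM with a median of 212, and its Syn Cre_neg libraries from 149.4 to 213.3 with a median of 180.1. Library Syn Cre_neg 2 was the 1 control inside the Cre_pos range that also exceeded its median, and libraries 1 and 6 lay just inside its lower edge. The log2 difference was 0.22 (SE 0.07, 95% interval 0.069 to 0.37). In the GFAP line the ranges were 172.0 to 198.2 CPM and 150.4 to 214.4 CPM, with a log2 difference of −0.0053. The log2 ratio of Aqp4 to Kcnj10 was −0.035 ± 0.20 in Syn Cre_pos and −0.36 ± 0.14 in Syn Cre_neg (SD, n = 6 each), so the pair did not move by the same amount by value.

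The promoters of the potassium channel, connexin and adhesion genes are printed because the comparisons below turn on these pairs. Each is the window from 250 bases before to 50 after the start in RefSeq (GRCm38.p6). Windows were read for 7 of the 9 members, while Aqp4 and Dtna were left out of this search. The windows were searched on both strands for 5 motifs, and capitals mark every match. These were the letters TATAAA, known as a promoter core element, the CCAAT box, the letters GGGCGG of the GC box, the letters TGANTCA of AP-1 sites and the letters TTGGC of half-sites for NFI factors. The reverse complement of CCAAT is ATTGG, which overlaps TTGGC in part. Among all 32851 windows of this length, TATAAA was found in 13.62%, CCAAT in 37.41%, GGGCGG in 35.66%, TGANTCA in 7.81% and TTGGC in 46.71%. The sequences run 5′ to 3′ on the gene's strand, and the RefSeq start need not be the start of the GENCODE model.
Kcnj10 promoter, chr1:172340960-172341259, plus strand: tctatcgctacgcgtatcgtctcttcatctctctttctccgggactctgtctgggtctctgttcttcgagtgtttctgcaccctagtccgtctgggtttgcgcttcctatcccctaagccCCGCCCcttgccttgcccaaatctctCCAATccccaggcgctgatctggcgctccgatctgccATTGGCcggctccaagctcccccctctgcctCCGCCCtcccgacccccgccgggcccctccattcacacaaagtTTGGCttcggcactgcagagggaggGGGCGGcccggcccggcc
Gja1 promoter, chr10:56377050-56377349, plus strand: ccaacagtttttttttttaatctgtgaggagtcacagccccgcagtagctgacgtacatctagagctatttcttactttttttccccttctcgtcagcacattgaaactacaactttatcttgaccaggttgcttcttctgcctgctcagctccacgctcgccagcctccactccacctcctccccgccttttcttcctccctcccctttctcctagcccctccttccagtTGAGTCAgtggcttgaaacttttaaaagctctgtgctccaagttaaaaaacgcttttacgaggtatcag
Gjb6 promoter, chr14:57133562-57133861, minus strand: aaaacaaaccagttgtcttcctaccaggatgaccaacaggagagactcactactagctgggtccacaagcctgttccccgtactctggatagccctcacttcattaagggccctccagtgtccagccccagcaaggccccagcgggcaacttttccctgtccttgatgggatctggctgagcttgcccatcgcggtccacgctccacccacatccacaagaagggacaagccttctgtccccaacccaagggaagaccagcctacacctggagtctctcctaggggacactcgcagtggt
Mlc1 promoter, chr15:88978504-88978803, minus strand: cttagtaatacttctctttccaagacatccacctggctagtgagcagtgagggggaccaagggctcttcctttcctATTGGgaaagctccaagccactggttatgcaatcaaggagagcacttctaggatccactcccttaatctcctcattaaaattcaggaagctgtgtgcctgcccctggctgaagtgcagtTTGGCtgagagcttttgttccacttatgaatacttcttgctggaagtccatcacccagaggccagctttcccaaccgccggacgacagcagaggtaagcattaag
Hepacam promoter, chr9:37367356-37367655, plus strand: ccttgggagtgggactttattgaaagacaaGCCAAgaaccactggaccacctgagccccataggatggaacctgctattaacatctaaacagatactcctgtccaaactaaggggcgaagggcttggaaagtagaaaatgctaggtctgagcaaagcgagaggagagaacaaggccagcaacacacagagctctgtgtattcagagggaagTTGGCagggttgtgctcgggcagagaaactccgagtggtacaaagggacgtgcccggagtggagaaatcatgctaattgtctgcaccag
The windows differed in GC content and in which of these letters they held, and those of Kcnj10, Mlc1 and Hepacam shared TTGGC. The Kcnj10 window holds 21 CpG dinucleotides at 63.7% GC, with 3 GC boxes, 2 CCAAT boxes and 2 NFI half-sites. The Gja1 window is at 47.7% GC with 8 CpG, and its single match is an AP-1 site at position −19. The Gjb6 window, at 57.3% GC with 6 CpG, holds none of these letters. The Mlc1 window (49.7% GC) has 1 CCAAT box and 1 NFI half-site, and the Hepacam window (50.7% GC) has 2 NFI half-sites. The median of all windows was 52.7% GC with 7 CpG. A match is a description of letters in this window, and the motifs and windows were picked after the expression values were seen.

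Gja1 (ENSMUSG00000050953, chromosome 10, 56377330 to 56402513, plus strand) encodes connexin 43 and Gjb6 (ENSMUSG00000040055, chromosome 14, 57123303 to 57133611, minus strand) connexin 30, the 2 main connexins of astrocytes. Their values went in opposite directions in the Syn line. Gja1 held 249.0, 251.5, 247.7, 228.9, 232.2 and 235.6 CPM in Syn Cre_pos 1 to 6. In Syn Cre_neg 1 to 6 it held 224.7, 221.7, 191.2, 215.9, 215.8 and 217.9 CPM. The groups did not overlap, the gap being between 224.7 and 228.9 CPM, and the log2 difference was 0.17 (SE 0.05, 95% interval 0.070 to 0.26). Gjb6 held 42.5, 44.5, 41.0, 36.7, 43.2 and 43.0 CPM in Syn Cre_pos 1 to 6. In Syn Cre_neg 1 to 6 it held 52.3, 71.9, 59.2, 42.7, 46.1 and 41.6 CPM. The Cre_pos libraries were tightly grouped, while the controls spread from the Cre_pos level up to 71.9 CPM. The log2 difference of Gjb6 was −0.32 (SE 0.11), it was −0.21 without library Syn Cre_neg 2, and it was −0.49 without the libraries of high Ttr.

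The ratio of the connexins does not depend on the scaling of a library. On the log2 scale, Gja1 over Gjb6 was 2.53 ± 0.083 in Syn Cre_pos and 2.06 ± 0.33 in Syn Cre_neg (SD, n = 6 each). The ranges, 2.43 to 2.64 and 1.62 to 2.39, did not overlap. No share over gene pairs at large was computed, so nothing particular to the connexins is read from that gap. In GFAP Cre_pos and Cre_neg the ratio was 2.37 ± 0.22 and 2.44 ± 0.15, a difference of −0.065 (exact permutation p = 0.584, two-sided, adjusted p = 0.584 over 5 ratio tests). Of the 9 members, Aqp4 and Gja1 were the 2 whose Syn groups did not overlap. Among all genes tested 40, or 0.203%, had Syn groups that did not overlap, and since the members were chosen with this contrast nothing is read from that count. The median Syn log2 difference was 0.0070 over the 9 members and −0.0029 over all genes.

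**Figure D2:**
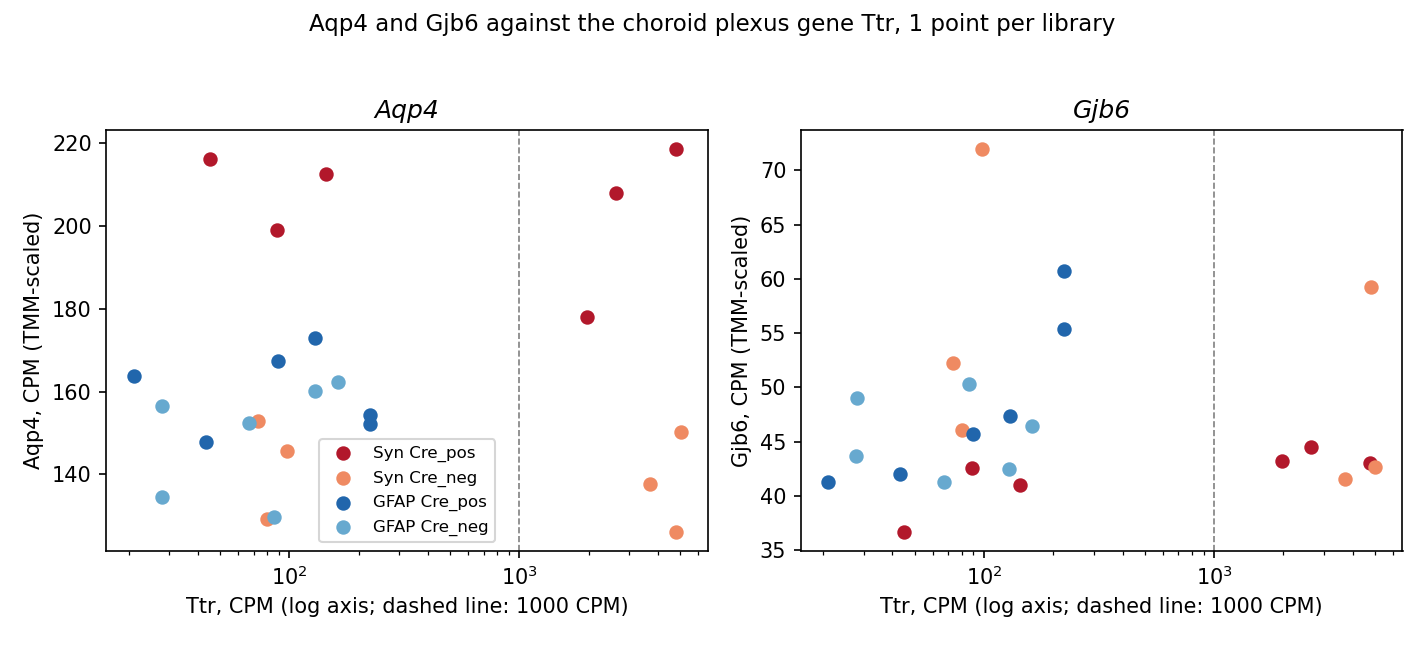
Aqp4 (left) and Gjb6 (right) in CPM against the choroid plexus gene Ttr in CPM on a log axis, 1 point per library, coloured by group, with the dashed line at 1000 CPM. The Syn Cre_pos points of Aqp4 lie at the top on both sides of the line, and the highest Gjb6 point, at 71.9 CPM, is a Syn Cre_neg library left of the line.

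The dystrophin-complex members were close to even between the Syn groups. Dag1 (ENSMUSG00000039952, chromosome 9, 108204634 to 108263958, minus strand) encodes dystroglycan, the receptor for laminin and agrin. It ran from 98.6 to 112.9 CPM in Syn Cre_pos and from 104 to 119.6 in Syn Cre_neg, a log2 difference of −0.049 (95% interval −0.17 to 0.070). Dtna, alpha-dystrobrevin, ran from 153.3 to 175.2 CPM and from 158.9 to 182.9, a log2 difference of −0.051 (−0.15 to 0.048). Dmd (ENSMUSG00000045103, chromosome X, 82948870 to 85206141, plus strand), dystrophin, ran from 70.6 to 83.7 CPM and from 73.6 to 81.3, a log2 difference of 0.0045 (−0.13 to 0.14). All 3 pairs of groups overlapped through most of their range, and the intervals together span log2 differences from −0.17 to 0.14.

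Mlc1 (ENSMUSG00000035805, chromosome 15, 88955884 to 88979007, minus strand) and Hepacam (ENSMUSG00000046240, chromosome 9, 37367351 to 37386575, plus strand) were also near even between the Syn groups. Mlc1, a membrane protein of astrocyte junctions, ran from 175.4 to 201.8 CPM in Syn Cre_pos and from 166.4 to 193.0 in Syn Cre_neg, a log2 difference of 0.079 (95% interval −0.012 to 0.17). Hepacam, the adhesion molecule GlialCAM that carries MLC1 to junctions, ran from 87.4 to 100.9 CPM and from 82.0 to 100.1, a log2 difference of 0.0070 (−0.096 to 0.11).

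The GFAP comparison, which the choice of the genes did not use, gave no call for any member. With edgeR's quasi-likelihood test, 0 of 9 had an adjusted p under 0.05 and 0 of 9 an unadjusted p under 0.05, and DESeq2 and limma-voom also called 0. Few genes of any kind were called there, 2 of 19726 or 0.0101%, and 39 genes, or 0.198%, had groups that did not overlap, among them 0 members. Aqp4 had a log2 difference of 0.097 (SE 0.06, 95% interval −0.029 to 0.22, edgeR adjusted p = 0.9997). Without library GFAP Cre_neg 4, the lowest of its group for Aqp4, it was 0.058. Gjb6 had a log2 difference of 0.099 (−0.13 to 0.33), the widest interval of the members. The other 7 lay between −0.028 for Hepacam and 0.032 for Mlc1. The median was 0.014 over the members and −0.0026 over all genes. Set beside each other, the Syn and GFAP log2 differences were 0.55 and 0.097 for Aqp4, 0.22 and −0.0053 for Kcnj10, 0.17 and 0.024 for Gja1, and −0.32 and 0.099 for Gjb6. The difference between the 2 Cre contrasts was 0.45 for Aqp4 (SE 0.09) and −0.42 for Gjb6 (SE 0.16), given with no test because it holds the contrast that chose Aqp4.

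**Figure D3:**
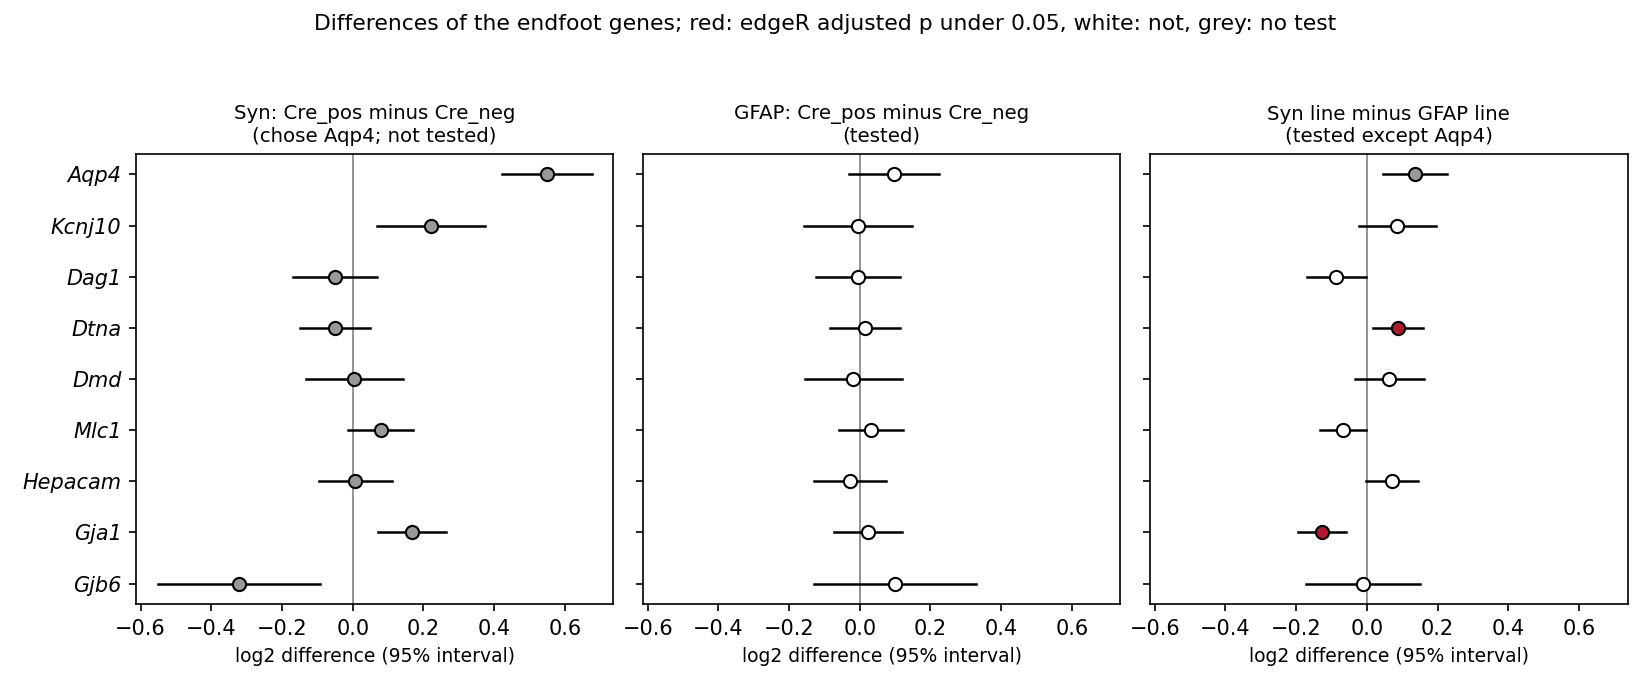
Fitted log2 differences of the 9 endfoot genes with 95% intervals, for Cre_pos minus Cre_neg in the Syn line (left, no test), the same in the GFAP line (middle) and the Syn line minus the GFAP line (right). Grey points were not tested, among them Aqp4 in the right panel, white points had an edgeR adjusted p of 0.05 or more and red points lay under it. Aqp4 stands at 0.55 on the left and at 0.097 in the middle, and Gja1 is the 1 red point left of 0. The intervals on the left, and that of Aqp4 on the right, do not allow for the choice of Aqp4.

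The lines themselves differed, with both groups of each line averaged. The line value of Aqp4 averages in the Syn Cre_pos level for which Aqp4 was chosen, so it is described without a test. Of the other 8 members 2 were called by edgeR at an adjusted p under 0.05, 1 higher (Dtna) and 1 lower (Gja1), where 9210 of all genes, or 46.7%, were called, so the members' share was not above that of genes at large. Under the alternatives for this comparison 1 to 4 of the 8 were called, and which of them were called varied. Higher calls took 21.4% of all genes and lower calls 25.3%, and groups that did not overlap took 4.41%, among them 0 members. The median log2 difference was 0.063 over the members and −0.023 over all genes. The line goes together with the Cre driver and with any cohort or dissection it was raised or taken in, and these cannot be told apart. Reads outside genes took 7.52 to 11.1% of a file in the Syn line and 4.47 to 6.37% in the GFAP line. These ranges did not overlap, and the part of this difference in the line values was not tested. Markers of several cell types moved with the line. Called higher in the Syn line were 10 of 10 choroid plexus markers (median 3.23), 9 of 10 ependymal and 10 of 10 oligodendrocyte markers, and called lower were 8 of 10 neuron and 7 of 10 endothelial markers. Of the 20 astrocyte markers 2 were called higher and 8 lower, with a median of −0.071, and of 7 tested regional astrocyte markers 0 were called higher and 6 lower, with a median of −0.21. The 20 markers had summed levels of 5019 to 5881 CPM in the Syn groups and 5388 to 6155 in the GFAP groups. Summed choroid plexus markers ran from 285 to 7342 CPM in the Syn line and from 215 to 535 in the GFAP line, and summed ependymal markers from 62.6 to 118 and from 47.3 to 70.8 CPM, with none of these markers at 0 in a whole group. Apart from the runs without high-Ttr libraries and with the astrocyte mean as a covariate, the part of these cells in the line values was not tested.

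Gja1 was lower in the Syn line by 8.36% (log2 −0.13, SE 0.03, edgeR adjusted p = 0.00282), with group means of 241 and 215 CPM there and 250.1 and 246 CPM in the GFAP line. The call was lost without the libraries of high Ttr (−0.079, adjusted p = 0.141) and between the Cre_pos groups alone (−0.055, edgeR adjusted p = 0.413). It was kept between the Cre_neg groups alone (−0.20). Aqp4 had a line value of 0.14 (SE 0.04), made of 0.36 between the Cre_pos groups and −0.089, the opposite sign, between the Cre_neg groups. Dtna was higher by 0.088 (SE 0.03, adjusted p = 0.0354). With 1 library left out at a time its adjusted p ran from 0.0107 to 0.0741, and it lost the call in the absence of any of 7 libraries: Syn Cre_pos 1 and 2, Syn Cre_neg 1, 2 and 4, and GFAP Cre_pos 3 and 4. It did not pass either with no filter (0.071), with limma-voom (0.069) or with the astrocyte covariate (0.062). Nor did Dtna pass between the Cre_neg groups alone (0.12, edgeR adjusted p = 0.0579) or the Cre_pos groups alone (0.056, edgeR adjusted p = 0.415). The remaining 6 did not pass: Kcnj10 (0.086, adjusted p = 0.184), Dag1 (−0.086, 0.0852), Dmd (0.063, 0.287), Mlc1 (−0.068, 0.0792), Hepacam (0.071, 0.104) and Gjb6 (−0.010, 0.928). Kcnj10 passed without the libraries of high Ttr (0.17, adjusted p = 0.0307), with a filter of at least 1 CPM in 6 libraries and between the Cre_pos groups. With limma-voom Dag1 (−0.11, adjusted p = 0.0137) and Mlc1 (−0.070, adjusted p = 0.0425) were called lower as well, and Dag1 also with the astrocyte covariate.

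The partners Mlc1 and Hepacam stood in a different proportion in the 2 lines. The log2 ratio of Mlc1 to Hepacam, which needs no library scaling, averaged 1.03 ± 0.041 in Syn Cre_pos and 0.96 ± 0.057 in Syn Cre_neg (SD, n = 6 each). It averaged 1.16 ± 0.069 in GFAP Cre_pos and 1.099 ± 0.074 in GFAP Cre_neg. The Syn libraries ran from 0.90 to 1.09 and the GFAP libraries from 1.03 to 1.22, so the lines overlapped at their edges. The line difference was −0.14 (permutation p = 0.00016, two-sided, 12 against 12 libraries, adjusted p = 0.0008 over 5 ratio tests). Of all genes 46.7% were called between the lines, and no share over gene pairs at large was computed. Nothing particular to this pair is therefore read from the ratio, and the part of the marker shifts in it was not tested. It was −0.14 between the Cre_neg groups and −0.13 between the Cre_pos groups. In the GFAP line Cre_pos and Cre_neg differed by 0.060 (exact permutation p = 0.186, adjusted p = 0.310). For Gja1 over Gjb6 the line difference was −0.11 (permutation p = 0.338, adjusted p = 0.422). For Aqp4 over Kcnj10 the GFAP Cre difference was 0.10 (exact permutation p = 0.154, adjusted p = 0.310).

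Other genes of these pathways were read from lists, with 0 calls in any list in the GFAP comparison. The line counts below stand beside the 21.4% of all genes called higher and the 25.3% called lower, and nothing particular to a list is read from them. In the line comparison, edgeR called 1 of 14 other dystrophin-complex genes higher and 2 lower. The higher one was Sspn, sarcospan (0.18, adjusted p = 0.0268), and the lower ones were the syntrophin gene Sntg1 (−0.21, 0.000889) and beta-dystrobrevin Dtnb (−0.15, 0.00347). Of 11 enzymes that put laminin-binding sugars on dystroglycan, 3 were called higher and 6 lower. The lower ones include Pomgnt2 (−0.24), Pomk (−0.22) and B4gat1 (−0.23). Of 14 dystroglycan ligands and vessel basement membrane genes, 6 were called higher and 0 lower, a total below the 46.7% called among all genes. Among them were agrin Agrn (0.35), the collagen IV chains Col4a1 (0.41) and Col4a2 (0.58), and laminin alpha-5 Lama5 (0.79). The ligand and enzyme lists thus had medians of opposite sign, 0.17 and −0.16, against −0.023 over all genes.

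Of 10 partners of MLC1 and GlialCAM, 3 were called higher in the Syn line and 4 lower, where 46.7% of all genes were called in either direction. Clcn2, the chloride channel that GlialCAM binds, was higher (0.33), Lrrc8d, a subunit of volume-regulated anion channels, was lower (−0.26), and the calcium channel gene Trpv4 was higher (2.16), at 6.25 and 7.16 CPM in the Syn groups against 1.489 and 1.502 in the GFAP groups. Of 12 potassium and volume genes, 1 was called higher, the cotransporter gene Slc12a2 (0.57), and 3 lower, the sodium pump subunit gene Atp1b1 (−0.26) and the potassium channel genes Kcnk2 (−0.27) and Kcnj16 (−0.28), the last of which forms channels together with Kir4.1. Of 12 other connexins, pannexins and junction scaffolds, 4 were called higher and 3 lower, with the oligodendrocyte-lineage connexins Gjc3 (0.50) and Gjb1 (0.37) higher and Panx1 (−0.30) lower. Of 10 other aquaporins 3 passed the filter. Aqp1, the water channel of choroid plexus, had 10.01 and 13.9 CPM in the Syn groups against 0.675 and 0.710 in the GFAP groups (4.10), Aqp11 was lower (−0.34) and Aqp9 did not pass (−0.080). These line values run alongside the marker shifts given above, and their part in them was not tested.

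Within groups, the endfoot genes fell into more than 1 pattern of covariation. Pearson's r of log2 CPM was computed over the 24 libraries after group means were subtracted, and it is a description, since values of 1 library share its depth, scaling and dissection. Mlc1 and Hepacam had r = 0.68, Mlc1 and Gjb6 0.62, and Dtna and Dmd 0.60. Aqp4 had 0.54 with Gja1, 0.54 with Dag1, 0.45 with Dmd, 0.39 with Kcnj10 and 0.38 with Dtna. It had −0.30 with Mlc1, −0.24 with Gjb6 and −0.07 with Hepacam, so by value Aqp4 was nearer to the dystrophin-complex genes, Gja1 and Kcnj10 than to the adhesion pair. Without subtraction of group means Aqp4 had −0.04 with Dag1, 0.13 with Dtna and 0.27 with Dmd. It then had 0.09 with Mlc1 and 0.11 with Hepacam, so this order depends on the measure. Gja1 and Gjb6 had r = 0.02. The spread within groups was widest for Gjb6 (pooled SD 0.204 on the log2 scale), then Kcnj10 (0.142), and narrowest for Mlc1 (0.0687).

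**Figure D4:**
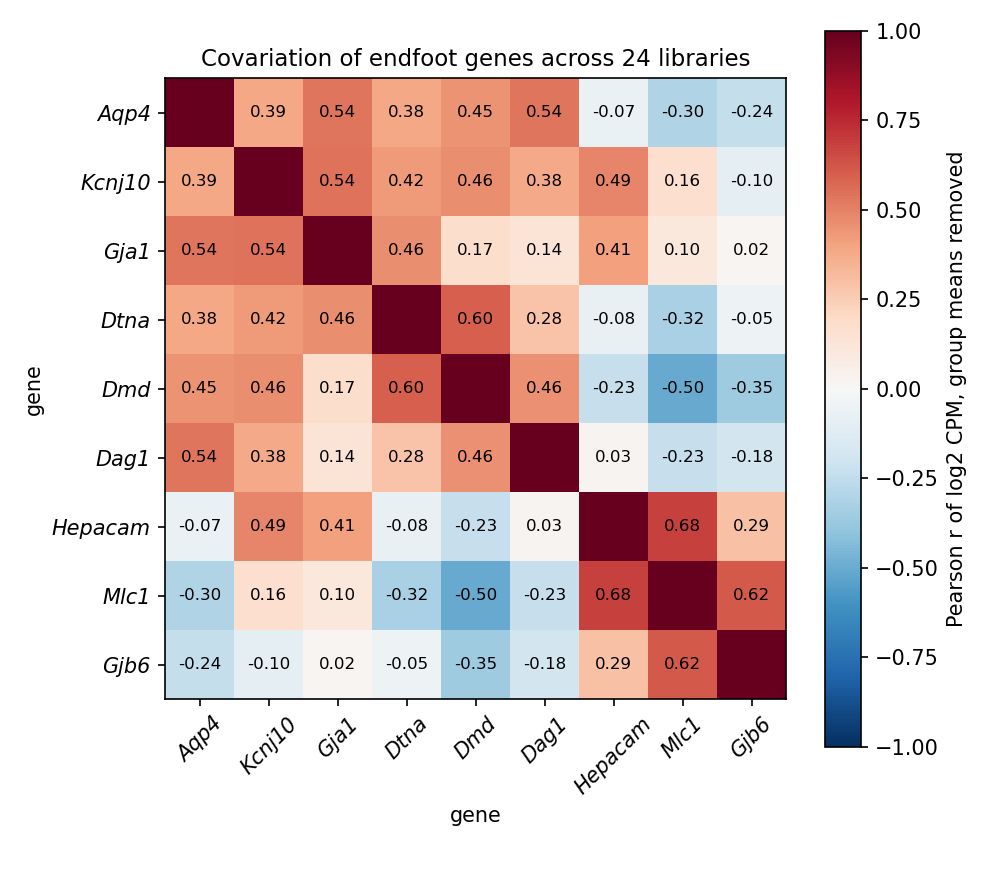
Pearson's r of log2 CPM between each pair of the 9 endfoot genes over 24 libraries after subtraction of group means, from −1 (blue) to 1 (red). Mlc1 is at 0.68 with Hepacam and at 0.62 with Gjb6, while Hepacam and Gjb6 are at 0.29 and Hepacam and Kcnj10 at 0.49. Dtna and Dmd are at 0.60, and Dmd and Mlc1 are at −0.50.

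Over the 10479 genes whose mean log2 CPM reached 3, the 10 closest to Aqp4 by that measure were Zswim6 (0.73), Evc2 (0.73), Tle3 (0.73), Zfp39 (0.73), Ube3c (0.71), Prkcb (0.70), Ankrd33b (0.70), Tmem200a (0.69), Plxna1 (0.69) and Nectin3 (0.69). None of them is an endfoot member, and Gja1 and Dag1 ranked 359 and 360. By Spearman's rho the same 10 ranked from 1 to 55.5, and without subtraction of group means from 173 to 9088, so the list depends on the measure. Kcnj10 was closest to Dennd5a (0.88), Nacc2 (0.85) and Ank1 (0.85), and Dag1 to Urb2 (0.86), Ankrd50 (0.84) and Kif3c (0.81). Dtna was closest to Rbbp5 (0.86), Cblb (0.85) and Med13l (0.84), and Dmd to Dlg2 (0.92), Med12l (0.91) and Dpp8 (0.91). Mlc1 was closest to Vamp3 (0.83), Crip2 (0.82) and Igfbp6 (0.82), Hepacam to Cnp (0.81), Sun2 (0.81) and Sirt2 (0.80), Gja1 to Rftn2 (0.74), Rasgrp3 (0.70) and Ccdc97 (0.67), and Gjb6 to Htra1 (0.84), Thrsp (0.83) and Nde1 (0.81). Cnp is a gene of myelinating cells on the oligodendrocyte marker list.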

How the data were processed

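Total RNA of mouse brain was purified with a lipid tissue kit and sequenced on an Illumina HiSeq instrument, per the labels' protocols. The authors deposited whole-number counts per gene, not normalized. HISAT2 (version not given), HTSeq 0.6.0, DESeq2 1.6.3 and mm10 stand in the submitters' processing notes with no role. No strand setting or annotation release was found in the sources used here. Sense and antisense reads cannot be told apart.

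Symbols and exon lengths came from GENCODE M21, which named 52403 of 52636 identifiers. The HTSeq summary lines were left out of library sizes, with reads outside genes taking 4.47 to 11.1% of a file. Genes kept by filterByExpr (19726) were scaled by TMM and fitted with edgeR 4.0.16 (R 4.3.3) as 4 groups over 24 libraries, with 20 residual degrees of freedom. Quasi-likelihood p-values were adjusted by Benjamini-Hochberg over all genes, at 0.05. CPM and RPKM were computed from the deposited counts. limma 3.58.1, DESeq2 1.42.0 and other settings served as alternatives. The fit was tested on simulated data. Replicates are mice, per the labels, numbered in accession order. Ratios within a library were tested by permutation.

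Members, lists, ratio pairs and motifs were chosen with earlier results of these data known. From each pathway list up to 4 genes with the smallest p in the line comparison were eligible to be named, with the genes closest to each member, Slc1a2 and Ttr. Some genes this rule takes are left out here.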

Additional observations from a re-analysis of the deposited data

Results flagged for a closer look

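Among 36 sets of 6 values (each member in each group), 3 held a library far from the other 5 by Dixon's criterion (a gap over 0.625 of the range), where chance alone gives about 1.8. Gja1 in library Syn Cre_neg 3 was 191 CPM, while the remaining libraries of that group held 216 to 225 CPM, and its Syn log2 difference was 0.14 without that library. Dmd in library GFAP Cre_neg 4 was 57.9 CPM against 73.4 to 81.0 CPM, and its GFAP log2 difference was −0.082 without it. Dag1 in library GFAP Cre_pos 4 was 104.8 CPM against 113 to 118 CPM.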

How the results depend on the processing

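Alternatives covered scaling, filtering, DESeq2, limma-voom, each line alone, each library left out, libraries with Ttr above 1000 CPM left out, and the astrocyte marker mean as a covariate; the line comparison within Cre_pos groups was added after seeing the data. Members called in the GFAP comparison were 0 under all 33. Of the 8 members other than Aqp4, 2 were called in the line comparison, and 1 to 3 with 1 library left out. The number was 4 with at least 1 CPM in 6 libraries (fewer genes tested) and 1 between Cre_neg groups (fewer samples). With Aqp4 counted, members called in the line comparison were 3, and between 2 and 4 with 1 library left out. They were then 5 with at least 1 CPM in 6 libraries and 1 between Cre_neg groups. No call of Aqp4 is read from these tallies, since its line value holds the level for which it was chosen. The line value of Aqp4 turned to −0.089 between Cre_neg groups. Genes called higher made up 45.8% of line calls with TMM, 52.6% with RLE and 57.4% with upper-quartile factors. Hepacam was called under the last pair (0.095 and 0.11), with DESeq2, with at least 1 CPM in 6 libraries and with the astrocyte covariate. It was also called without library Syn Cre_neg 3 and without library GFAP Cre_pos 2. Between Syn groups Aqp4 ran from 0.52 to 0.59 with 1 library left out and from 0.53 to 0.56 otherwise, and the difference of its Cre contrasts from 0.42 to 0.49 and from 0.39 to 0.49. Xist classes could not be used as a covariate, since the libraries form a single class. No paired analysis was possible because replicate numbers follow accession order and no title prefix is shared between groups.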

Other observations

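All 24 libraries had Xist at 0 to 0.303 CPM, and the Y-linked gene Ddx3y lay between 61.1 and 79.6 CPM in all libraries but Syn Cre_pos 3, which held 142 CPM. Aqp4 in that library, at 212.5 CPM, lay within the range of the other Syn Cre_pos libraries.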
